A study of Mus musculus with 48 samples.

Results

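The genes described here are 45 that encode the machinery of DNA replication, from the factors that license origins to those that package the new strands into chromatin. They were taken as a fixed list of symbols, and for each gene the probe set of highest mean signal over the 48 arrays was used. Of the 45, 44 had a probe set annotated to that gene alone, and all 44 passed the filter on low signals among the 12764 genes tested; Chaf1a was not analysed here. The list was grouped by role into origin licensing (5 genes), the replicative helicase (11), helicase activation (1), polymerases and primase (7), the sliding clamp and its loaders (7), strand processing and single-strand binding (5), chromatin assembly (3 of 4), fork protection (3) and cyclin E (2).

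All cultures were mouse 32D cells, an interleukin-dependent myeloid progenitor line, made to express BCR/ABL, the fusion kinase of chronic myeloid leukaemia. Each line carried the MigRI retrovirus: empty, or with C/EBPα joined to an estrogen receptor part that 4-hydroxytamoxifen (4-HT) activates. The C/EBPα was wild type (WT), K298E, which per the labels cannot bind DNA, or Δ(177-191), which per the labels has lost its contact with CDK2 and CDK4. All 4 lines, vector cells included, received 4-HT and were sampled at 0, 6, 9 and 12 h, with 3 arrays (Affymetrix MOE430_2) in each of the 16 groups. Each construct had a single line, and the labels name no culture without 4-HT at the later times, so a line cannot be told apart from its construct, nor time in culture from 4-HT in vector cells. Whether the 3 arrays of a group are parallel dishes or independent experiments is described in different ways by the labels, and the p-values therefore cover the array-to-array spread only, which may be technical.

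Replication starts in G1, when the origin recognition complex, with CDC6 and CDT1, loads the ring of MCM proteins onto DNA. At the start of S phase CDC45 and the GINS complex join that ring to form the active CMG helicase, DNA polymerase α and primase lay primers, polymerases δ and ε copy the strands on the PCNA clamp, and chromatin factors rebuild nucleosomes behind the fork. Many of these genes are classical targets of the E2F factors, which the cyclin E and CDK2 kinase helps to release, and C/EBPα is a myeloid transcription factor known for halting proliferation as progenitors become granulocytes.

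The promoters are shown because the members share E2F letters there more often than the tested genes at large. The 8-letter E2F motifs searched, on both strands, were TTTCGCGC, TTTCCCGC, TTTGGCGC and TTTGCCGC, in RefSeq windows (GRCm38.p6) of 250 bases before to 50 after each start. A window was given for 35 of the 45 members, and 15 of these (42.9%) held an E2F motif, against 4.49% of the 10339 tested genes with a window and 2.6% of all genes in the table. The motif also stood in 5 of 12 (41.7%) other chromatin factors coupled to replication and in 7 of 34 (20.6%) other replication factors. By role, the motif stood in 5 of 7 helicase genes, 3 of 5 licensing genes, 3 of 5 polymerase genes, and 1 of 4 chromatin assembly genes. The motif CCAAT was found in 65.7% of the members and 42.3% of tested genes, TTTGAA in 11.4% and 14.7%, and TTGCGCAA, a palindrome that C/EBP factors bind, in 0 of 35 members and 0.3% of tested genes. Below are the 250 bases before the start of 5 members whose values recur in the text, with E2F letters in capitals, printed 5′ to 3′ on the gene's strand. The stretches are chr11:98907901-98908150 (+) for Cdc6, chr1:128359706-128359955 (-) for Mcm6, chrX:93632156-93632405 (-) for Pola1, chr17:56304063-56304312 (+) for the second of 2 starts of Uhrf1, and chr2:5012792-5013041 (-) for Mcm10.
Cdc6: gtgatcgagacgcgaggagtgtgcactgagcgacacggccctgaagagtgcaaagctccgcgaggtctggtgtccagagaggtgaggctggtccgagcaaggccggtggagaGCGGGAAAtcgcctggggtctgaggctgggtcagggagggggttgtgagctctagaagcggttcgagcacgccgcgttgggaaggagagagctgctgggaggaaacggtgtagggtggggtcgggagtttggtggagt
Mcm6: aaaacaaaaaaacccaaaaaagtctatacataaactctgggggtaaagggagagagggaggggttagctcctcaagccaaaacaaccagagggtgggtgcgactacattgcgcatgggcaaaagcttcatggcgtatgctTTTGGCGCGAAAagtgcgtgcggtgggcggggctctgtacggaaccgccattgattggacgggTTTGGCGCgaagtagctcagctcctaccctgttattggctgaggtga
Pola1: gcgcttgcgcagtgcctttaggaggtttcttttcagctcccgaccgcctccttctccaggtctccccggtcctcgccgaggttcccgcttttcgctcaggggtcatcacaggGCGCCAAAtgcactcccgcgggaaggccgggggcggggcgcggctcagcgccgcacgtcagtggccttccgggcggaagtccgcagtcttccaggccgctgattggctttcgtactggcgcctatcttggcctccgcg
Uhrf1: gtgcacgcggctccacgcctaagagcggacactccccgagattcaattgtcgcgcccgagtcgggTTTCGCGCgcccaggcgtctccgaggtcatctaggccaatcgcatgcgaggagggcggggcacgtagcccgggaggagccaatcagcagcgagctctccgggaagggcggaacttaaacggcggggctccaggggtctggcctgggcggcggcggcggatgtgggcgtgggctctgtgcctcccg
Mcm10: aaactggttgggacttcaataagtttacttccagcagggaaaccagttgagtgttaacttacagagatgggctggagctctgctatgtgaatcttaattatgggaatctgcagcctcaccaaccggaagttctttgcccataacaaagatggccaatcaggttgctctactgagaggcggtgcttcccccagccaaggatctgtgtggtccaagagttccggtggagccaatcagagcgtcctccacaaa
Cdc6 and Pola1 each held 1 match, both at -138 to -131 from the start, Mcm6 held 3, 2 of which overlap, Uhrf1 held 1, at -185 to -178, and Mcm10 held none of these letters but 3 CCAAT boxes, 1 of them after the start and so outside the printed stretch. The first start of Uhrf1 held no E2F letters, and the members printed hold a match more often than the members at large. A match describes the letters in the window, and no binding was measured.

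The deposited signals share 1 scale, with a median of 11 to 19 per array. Between 0.324% and 3.40% of probe sets were at 0, and the ratio of 3′ to 5′ Gapdh control probe sets was 0.715 to 0.880. Esr1, part of which the fusions carry, had signals of 5 to 29 in vector cells and far higher ones in the fusion lines, as the labels would have it. The fusion lines were not alike, with 728 to 1599 in K298E, 1927 to 2607 in WT and 2787 to 4472 in Δ(177-191) cells. The part of this difference in the results was not tested. The summed signal of 9 myeloid progenitor markers was 6089 to 7285 in vector cells and 6984 to 9744 in the fusion lines, led by Ptprc, Myb and Csf2rb, while Kit and Cd34 stayed at or below 28 on every array. The sums for lymphoid, stromal, erythroid and epithelial markers stayed at or below 173. The part of the marker difference in the results was not tested. In such bulk RNA, fewer cells in S phase and less RNA per cell cannot be told apart.

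Most replication genes rose in vector and in WT cells after 4-HT, few passed the threshold in K298E cells, where most changes were small and above 0, and in Δ(177-191) cells some rose and some fell. At 12 h against 0 h, 38 of 44 members rose in vector cells (limma, adjusted p under 0.05), where 7.69% of all genes rose, and none fell, where 9.76% of all genes fell. In WT cells 36 rose, against 14.8% of all genes, and none fell, against 16.2%. No member fell in either line at an unadjusted p under 0.05. The median log2 change of the members was 0.52 in both lines, beside -0.04 and -0.07 over all genes tested in vector and WT cells. On the signal scale the median member stood at 1.43 times its 0 h level in vector cells and 1.44 times in WT cells, with all 44 above their start in vector cells and 42 in WT cells. With each array centred on its median, 25 members passed in vector cells and 36 in WT cells. That centring moved the median of all probe sets by up to 0.23, the most in the comparison of WT with K298E changes, from -0.07 to 0.16, and differences under it are to be read against that shift.

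K298E cells at 12 h had 4 rises, against 1.03% of all genes, and no falls (none at unadjusted p under 0.05), against 1.31%, with a median of 0.16. At an unadjusted p under 0.05 there were 18 higher, and 43 of 44 members stood above their 0 h signal, the median member at 1.12 times it. The 4 were Lig1, Timeless, Pole and Mcm6. This count rests on single arrays: without the 0 h array of replicate 1 it was 0, without that of replicate 3 it was 1, and without the 12 h arrays of replicates 1 and 2 it was 1 and 2. Δ(177-191) cells had 9 rises, against 12.2% of all genes, and 3 falls, against 18.3%, with a median of 0.01 and 26 of 44 members above their 0 h signal. The rises were Cdc6, Orc1, Mcm5, Cdc45, Gins2, Gins4, Rfc3, Lig1 and Ccne1, and the falls were Uhrf1, Rfc2 and Pole. With median centring the K298E line had 0 rises and the Δ(177-191) line 4 rises and 0 falls. Only Lig1 passed the threshold as a rise in all 4 lines, and Pole was the 1 member that rose in the other 3 and fell in Δ(177-191) cells. At 9 h the median member had stood at 1.39, 1.45, 1.15 and 0.983 times its start in vector, WT, K298E and Δ(177-191) cells.

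**Figure D1:**
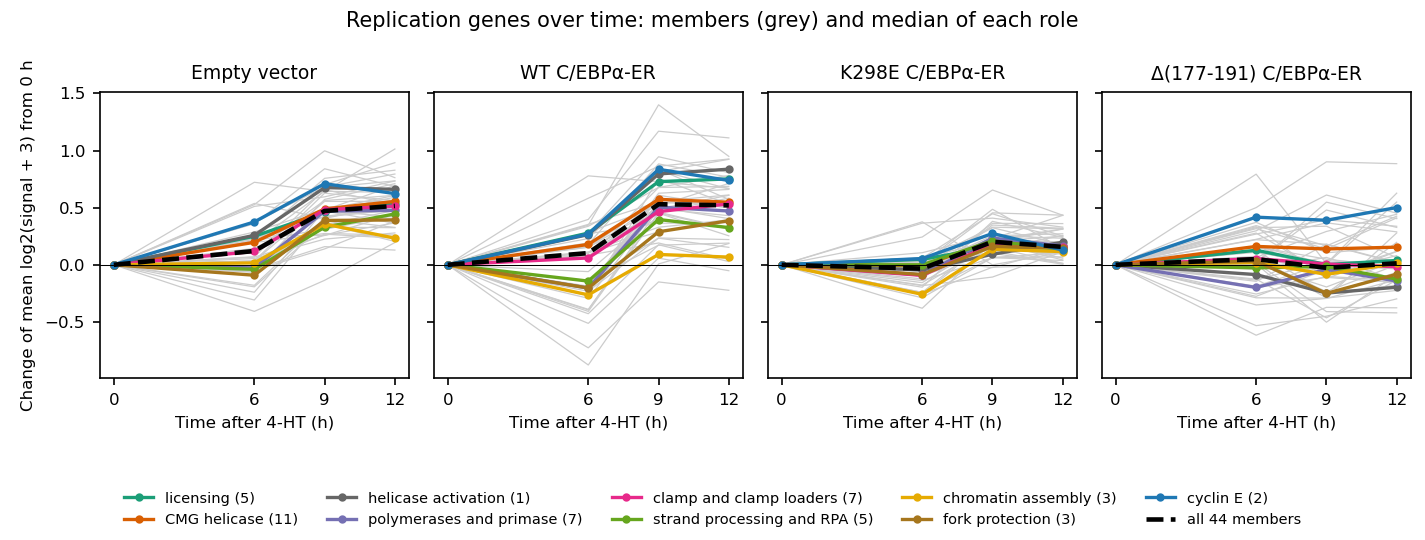
Change of the mean log2(signal + 3) from 0 h (vertical axis) against hours after 4-HT in the 4 lines, with each of the 44 members in grey, the median of each role in colour and the median of all 44 members as a dashed line. The dashed line reaches 0.52 at 12 h in vector and WT cells, 0.16 in K298E cells and 0.01 in Δ(177-191) cells.

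At 6 h fewer members had moved in vector and WT cells. In WT and Δ(177-191) cells as many fell as rose. The WT falls and both Δ(177-191) counts were near the shares of all genes. In vector cells 11 members were higher than at 0 h (8.41% of all genes) and none lower (12.0% of all genes; 3 members at unadjusted p under 0.05), led by Cdc6, Orc2, Ccne1 and Uhrf1. This 0 became 1 without the 0 h vector array of replicate 1 and 2 without its 6 h array, and 1 when the 9 h array of replicate 1 or 2 of the WT or the Δ(177-191) line was left out. In WT cells 10 were higher (13.5%) and 10 lower (19.0%). Of the 17 called members with further tested probe sets, 2 had another called the same way and none had one called the opposite way. The rises were Orc2, Cdc6, Cdt1, Mcm5, Mcm6, Gins1, Mcm10, Pola2, Rfc1 and Uhrf1, and the falls Rfc2, Gins3, Chaf1b, Clspn, Prim2, Pole, Prim1, Lig1, Slbp and Rpa1. All licensing calls at 6 h were rises, while 3 of the 4 polymerase calls and 2 of the 3 chromatin assembly calls in WT cells were falls. The roles were not tested against each other. Without the 0 h WT array of replicate 1 the rises numbered 5. Median centring gave 1 rise in vector cells and 3 rises and 3 falls in WT cells.

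In K298E cells at 6 h only Cdc6 and Orc2 were higher (5.45%) and only Prim2 and Slbp lower (7.04%). Both counts hang on single arrays: leaving out any K298E array of 0 or 6 h, or the 12 h WT array of replicate 2, left 1 rise, except the 6 h array of replicate 2, without which there was none. Slbp, at an adjusted p of 0.0492, was lost when any of 34 of the 48 arrays was left out. Δ(177-191) cells had 6 rises (12.2%), Cdc6, Ccne1, Mcm2, Mcm5, Slbp and Cdc45, and 6 falls (18.3%), Rfc2, Pole, Rfc4, Pola1, Prim1 and Rpa1. The median of all members there was 0.05, and -0.08 when each array was centred on its median, with 1 rise and 3 falls past the threshold, while K298E cells then had no calls.

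The lines did not start level. At 0 h the WT line had no member above vector (2.92% of all genes; 2 members at unadjusted p under 0.05) and 7 below (2.82%): Ccne1, Pola1, Pola2, Gins1, Mcm5, Rpa3 and Tipin. Without the 0 h WT array of replicate 1 or 2 the 7 became 2 or 4, and without the vector array of replicate 1 or 3, 4 or 3. The K298E line had 12 above (3.02%), led by Cdc6, Gins4, Rfc2 and Gins1, and none below (3.46%; 1 at unadjusted p under 0.05). The 12 became 6 without the K298E array of replicate 2 or 3, and 4, 6 and 5 without the vector arrays of replicates 1, 2 and 3. The Δ(177-191) line stood apart over the whole genome, with 13.3% of all genes above vector and 15.3% below. Among the members 3 were above (Uhrf1, Rfc1 and Rpa1) and 12 below, led by Ccne1, Pola1 and Pole2. With median centring the counts were 1 below in the WT line, 0 above in the K298E line, and 0 above and 4 below in the Δ(177-191) line.

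By 12 h the Δ(177-191) line had fallen behind vector in nearly the whole list, a comparison of levels that was added after the data had been seen. No member was above vector (17.8% of all genes; none at unadjusted p under 0.05) and 38 were below (25.4%), with a median difference of -0.61, beside -0.06 over all genes tested. The 6 not called were Orc1, Gins2, Gins3, Gins4, Rfc1 and Pcna. In the WT line none were above (7.93%; 1 at unadjusted p under 0.05) and 11 below (8.66%), with a median of -0.16. The 11 became 6 without the 12 h WT array of replicate 1 or the vector array of replicate 2, and 7 without the WT array of replicate 2. In the K298E line none were above (5.41%; 2 at unadjusted p under 0.05) and 5 below (3.85%): Ccne1, Mcm2, Pola1, Tipin and Orc6. Those 5 became 3 without the K298E array of replicate 2 or the vector array of replicate 1 or 2, and 2 without the K298E array of replicate 3, and leaving out the vector array of replicate 2 also put 1 member above. With median centring none were below in the WT line and 1 in the K298E line, while the Δ(177-191) count stayed between 34 and 39 under the alternatives that kept all arrays.

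**Figure D2:**
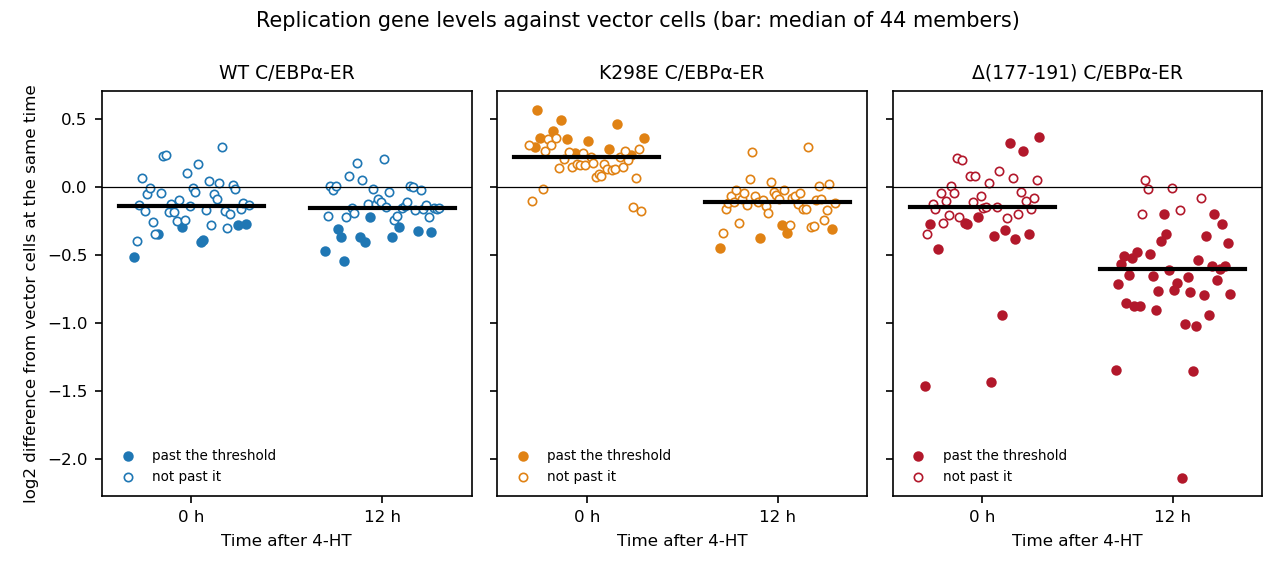
Log2 difference of each of the 44 members from vector cells at the same time (vertical axis) at 0 h and 12 h after 4-HT in the 3 fusion lines; filled points passed the threshold and bars are medians. In the Δ(177-191) line the median is -0.15 at 0 h and -0.61 at 12 h; in the K298E line it is 0.22 and -0.11.

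Because vector cells changed too, the change in each fusion line was set against the vector change, and these comparisons share the vector arrays. A negative difference means that the line rose less, or fell more, than vector cells did. At 12 h the WT change differed from the vector change for no member in either direction, where 3.82% of all genes were higher and 3.4% lower. At an unadjusted p under 0.05 there were 2 in each direction. Leaving out the 0 h WT array of replicate 1 or 3, the 0 h vector array of replicate 1 or the 12 h Δ(177-191) array of replicate 1 gave 1 member higher. The median of these differences was -0.02, and 0.15 with each array centred on its median. The K298E change was lower for 9 members (2.26% of all genes) and higher for none (3.38%; none at unadjusted p under 0.05), with a median of -0.31. The 9 were Ccne1, Cdc6, Mcm2, Orc6, Mcm10, Cdc45, Cdt1, Mcm4 and Mcm5. With each array centred on its median no member passed, and the median was -0.37.

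The Δ(177-191) change was lower than the vector change for 26 members (12.4% of all genes) and higher for none (9.97%; none at unadjusted p under 0.05), with a median of -0.46. The 26 held 6 of 7 polymerase and primase genes, 6 of 11 helicase genes, 4 of 7 clamp genes, 3 of 5 licensing genes, all 3 fork protection genes, 2 of 5 strand processing genes, Mcm10 and, of the chromatin assembly genes, Uhrf1. With median centring 10 passed. At 6 h the median difference was -0.015, or -0.057 with median centring, with 25 members below 0 and 19 above. At that time 7 members were lower than the vector change (10.1%): Pole, Uhrf1, Rfc4, Orc2, Rpa2, Mcm10 and Prim1. None was higher (8.18%; 2 at unadjusted p under 0.05). The 7 became 4 without the Δ(177-191) array of replicate 3 at 0 or 6 h, the 0 h vector array of replicate 1 or 2, or the 6 h vector array of replicate 2, and 0 with median centring. The 0 higher became 1, without a 6 h array of Δ(177-191) (replicate 2), WT or vector (replicate 1), or the 9 h vector array of replicate 2.

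At 6 h the WT change was lower than the vector change for Rfc2 alone (2.98% of all genes; 8 members at unadjusted p under 0.05) and higher for none (3.27%; 2 at unadjusted p under 0.05). The median was -0.10, and 0.06 with median centring. The count of 1 became 0 without replicate 1 of the WT or vector arrays at 0 or 6 h, or replicate 2 of the vector arrays at 6 h. The count, not always with Rfc2 in it, became 2 without WT replicate 2 or 3 at 6 h, WT replicate 2 at 9 h, vector replicate 3 at 0 h, or Δ(177-191) replicate 1 or 2 at 9 or 12 h, and 3 without Δ(177-191) replicate 2 at 6 h. The K298E change at 6 h was lower for none (0.118%; 13 members at unadjusted p under 0.05) and higher for none (1.19%; none at unadjusted p under 0.05). The median K298E difference at 6 h was -0.185, or -0.092 with median centring, and 37 of 44 members lay below 0. Leaving out the 6 h WT array of replicate 1 gave 1 member lower.

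Set directly against the mutants at 12 h, the WT change was higher than the K298E change for 18 members (7.97% of all genes) and lower for none (8.54%; none at unadjusted p under 0.05), with a median of 0.31. The 18 were 4 licensing genes (Cdt1, Cdc6, Orc2 and Orc6), 5 helicase genes (Gins1, Mcm5, Cdc45, Mcm2 and Mcm3), Mcm10, Pola1, Pola2, Pole2, Rfc3, Rfc4, Rfc5, Uhrf1 and Ccne1. Without the 0 h WT array of replicate 1 the count was 11. With median centring the count was also 11, while the median difference was 0.54. The K298E and WT lines had started apart, with median differences from vector of 0.22 and -0.14 at 0 h, and stood at -0.11 and -0.16 at 12 h; the 12 h levels of these lines were not tested against each other. Against the Δ(177-191) change the WT change was higher for 25 members (12.3%) and lower for none (9.39%; 1 at unadjusted p under 0.05), with a median of 0.44. Uhrf1, Gins1, Mcm10, Cdt1, Orc2 and Pola2 headed that list, with differences from 1.13 down to 0.80, and the difference for Ccne1 was -0.08 ± 0.17 (adjusted p = 0.84). At 9 h the same comparison was also called higher for Cdc6, Lig1, Fen1, Rfc3, Dscc1, Clspn and Ccne2. None of these passed at 12 h, while Rfc2 passed at 12 h and not at 9 h.

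**Figure D3:**
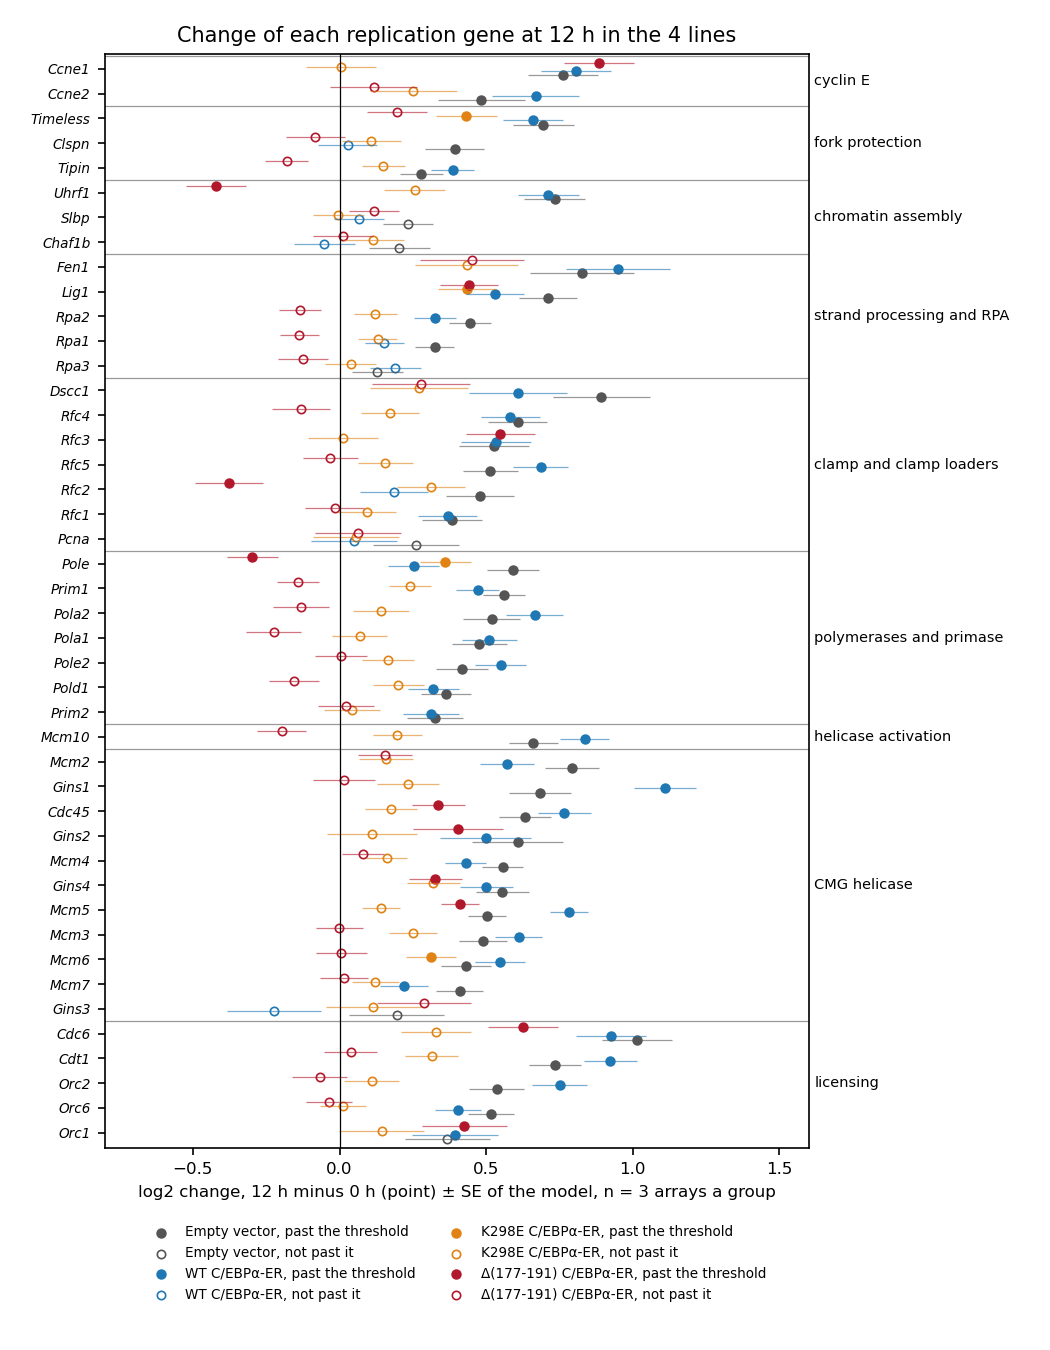
Log2 change from 0 h to 12 h (horizontal axis) of each of the 44 members in the 4 lines, with the standard error of the model from 3 arrays a group, members ordered by role. Filled points passed the threshold: 38 in vector cells, 36 in WT cells, 4 in K298E cells and 12 in Δ(177-191) cells, 3 of them below 0.

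Licensing genes rose in vector and WT cells. Their median change at 12 h was 0.54 in vector and 0.75 in WT cells, with 4 and all 5 of them past the threshold, against 0.14 with none in K298E cells and 0.04 with 2 in Δ(177-191) cells. Cdc6, which helps load the helicase onto origins and holds an E2F match in its promoter, had signals of 145, 163 and 172 at 0 h and 339, 342 and 297 at 12 h in vector cells. In WT cells it went from 142, 162 and 201 to 339, 317 and 303, and in Δ(177-191) cells from 135, 139 and 166 to 201, 264 and 221. In these 3 lines every 12 h array lay above every 0 h array. The log2 changes were 1.01 ± 0.12 (adjusted p = 2.13e-08) in vector, 0.93 ± 0.12 (adjusted p = 3.94e-08) in WT and 0.63 ± 0.12 (adjusted p = 5.5e-05) in Δ(177-191) cells. K298E cells began higher, at 259, 237 and 219, and reached 292, 302 and 305, also fully separate from their start. Their start was above vector by 0.57 ± 0.12 (adjusted p = 0.0018), their own change of 0.33 (adjusted p = 0.198) did not pass, and that change differed from the vector change by -0.68 (adjusted p = 0.0103). The start difference was 0.53 (adjusted p = 0.301) when arrays were centred on their medians, and 0.44 (adjusted p = 0.0652) and 0.58 (adjusted p = 0.0743) without replicate 1 and without replicate 2 of every group. Cdc6 in Δ(177-191) cells stood at 249, 292 and 229 at 6 h, a rise of 0.79 (adjusted p = 9.5e-07), and at 123, 157 and 165 at 9 h, where it overlapped its start.

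Cdt1, the partner of CDC6 in loading the MCM ring, behaved otherwise in the Δ(177-191) line. Vector cells had 536, 633 and 572 at 0 h and 1058, 966 and 881 at 12 h, a change of 0.73 ± 0.09 (adjusted p = 5e-08). WT cells had 460, 518 and 559 and 1048, 1006 and 869, a change of 0.92 ± 0.09 (adjusted p = 4.05e-11). Both pairs of groups were fully separate. Δ(177-191) cells had 487, 548 and 519 and 618, 524 and 463, which overlapped, and K298E cells 698, 740 and 787 and 953, 935 and 879, which did not. The Δ(177-191) change differed from the vector change by -0.70 ± 0.13 (adjusted p = 5.03e-05) and the K298E change by -0.42 (adjusted p = 0.0485). Orc2, a core subunit of the origin recognition complex, had already risen at 6 h, with a change of 0.78 (adjusted p = 8.24e-09) in WT cells and 0.54 (adjusted p = 3.11e-05) in vector cells. Orc6, another subunit, rose by 12 h in vector (0.52) and WT cells (0.40) and had changes of 0.01 and -0.04 in K298E and Δ(177-191) cells. Orc1, an ATP-binding subunit, had signals of 61 to 108 and passed in WT (0.39, adjusted p = 0.0399) and Δ(177-191) cells (0.43, adjusted p = 0.025), with a like value in vector cells that did not pass (0.37, adjusted p = 0.0915).

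In vector and in WT cells 10 of the 11 helicase genes rose by 12 h, with medians of 0.56 and 0.55. In K298E cells 1 rose, with a median of 0.16, and in Δ(177-191) cells 4 rose, with a median of 0.15. Gins1, a subunit of the GINS ring, had the highest 12 h change of the helicase genes in WT cells. Its WT signals were 106, 97 and 76 at 0 h, 122, 125 and 120 at 6 h, 195, 215 and 224 at 9 h and 213, 202 and 193 at 12 h. Vector cells went from 117, 120 and 118 to 212, 166 and 201. Both lines separated fully from their start, with 2.18 and 1.63 times the 0 h signal and log2 changes of 1.11 ± 0.11 (adjusted p = 1.84e-11) and 0.68 ± 0.11 (adjusted p = 4.55e-06). Δ(177-191) cells had 109, 99 and 99 at 0 h and 82, 110 and 122 at 12 h, groups that overlapped, a change of 0.01. That differed from the vector change by -0.67 ± 0.15 (adjusted p = 0.000742), and the WT change exceeded it by 1.10 ± 0.15 (adjusted p = 2.88e-07). Without replicate 1 of every group the difference from the vector change was -0.39 (adjusted p = 0.119), no longer past the threshold. K298E cells began at 164, 158 and 152, above every 0 h array of the other lines. They ended at 186, 199 and 174, also fully separate from their start. Their start exceeded vector by 0.41 (adjusted p = 0.0138).

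Gins4, of the same ring, was among the helicase genes that rose in the Δ(177-191) line too. Its signals were 276, 265 and 252 and 331, 427 and 418 in vector cells and 290, 296 and 332 and 389, 400 and 364 in Δ(177-191) cells, at 0 and 12 h. In both lines all 12 h arrays lay above all 0 h arrays. The changes were 0.56 (adjusted p = 1.14e-05) and 0.33 (adjusted p = 0.00472). K298E cells at 0 h had 363, 380 and 372, all above vector, a difference of 0.49 ± 0.09 (adjusted p = 0.000321) that was 0.45 with an adjusted p of 0.18 after median centring. Gins3 behaved otherwise. In WT cells it had 73, 72 and 65 at 0 h and 32, 44 and 49 at 6 h, all lower, a change of -0.73 (adjusted p = 0.000455). At 12 h its changes were 0.19 in vector and -0.22 in WT cells, neither past the threshold.

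Mcm7, an MCM ring subunit, rose in vector cells. Vector cells had 2075, 2181 and 2175 at 0 h and 2946, 2650 and 2958 at 12 h, a change of 0.41 ± 0.08 (adjusted p = 0.000242). Δ(177-191) cells had 1859, 1809 and 1853 and 2093, 1724 and 1785, which overlapped, a change of 0.02 that differed from the vector change by -0.39 (adjusted p = 0.0112). The other MCM genes differed among themselves in the Δ(177-191) line. Mcm5 rose there, from 984, 971 and 996 to 1306, 1368 and 1253, by 0.41 (adjusted p = 2.12e-06). Mcm3 and Mcm6 had changes of 0.00 and 0.01, against 0.49 and 0.43 in vector cells, and the differences passed at -0.49 (adjusted p = 0.00129) and -0.43 (adjusted p = 0.0101). Mcm2 rose less than in vector cells in both mutants, with differences of -0.64 (adjusted p = 0.000232) in Δ(177-191) and -0.64 (adjusted p = 0.00139) in K298E cells. Cdc45, the factor that completes the helicase, rose in vector (0.63), WT (0.77) and Δ(177-191) cells (0.34, adjusted p = 0.00344), and in K298E cells its change was 0.18 (adjusted p = 0.492). The probe set of Mcm5 is of a class that may match related transcripts, as are those of Fen1 and Ccne1. The probe sets of Mcm3, Mcm7 and Gins2 are of another class, which may match several transcripts.

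Mcm10, which helps switch the loaded helicase on and held no E2F letters in its window, went from 184, 230 and 226 to 386, 375 and 384 in WT cells and from 231, 237 and 230 to 374, 380 and 355 in vector cells. In Δ(177-191) cells it had 259, 263 and 280 at 0 h and 244, 234 and 221 at 12 h. The WT and vector groups were separate, with changes of 0.84 ± 0.08 (adjusted p = 7.31e-11) and 0.66 ± 0.08 (adjusted p = 9.66e-08). In Δ(177-191) cells all 12 h arrays lay below all 0 h arrays, but the change of -0.20 (adjusted p = 0.0836) did not pass. It differed from the vector change by -0.86 ± 0.12 (adjusted p = 3.07e-07), and the WT change exceeded it by 1.03 ± 0.12 (adjusted p = 6.4e-09). Averaged over all its probe sets, the difference from the vector change was -0.44 (adjusted p = 0.17). K298E cells at 0 h had 289, 306 and 297, above vector by 0.35 (adjusted p = 0.00668), a call lost over all probe sets (0.13, adjusted p = 0.776) and after median centring (0.32, adjusted p = 0.639).

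**Figure D4:**
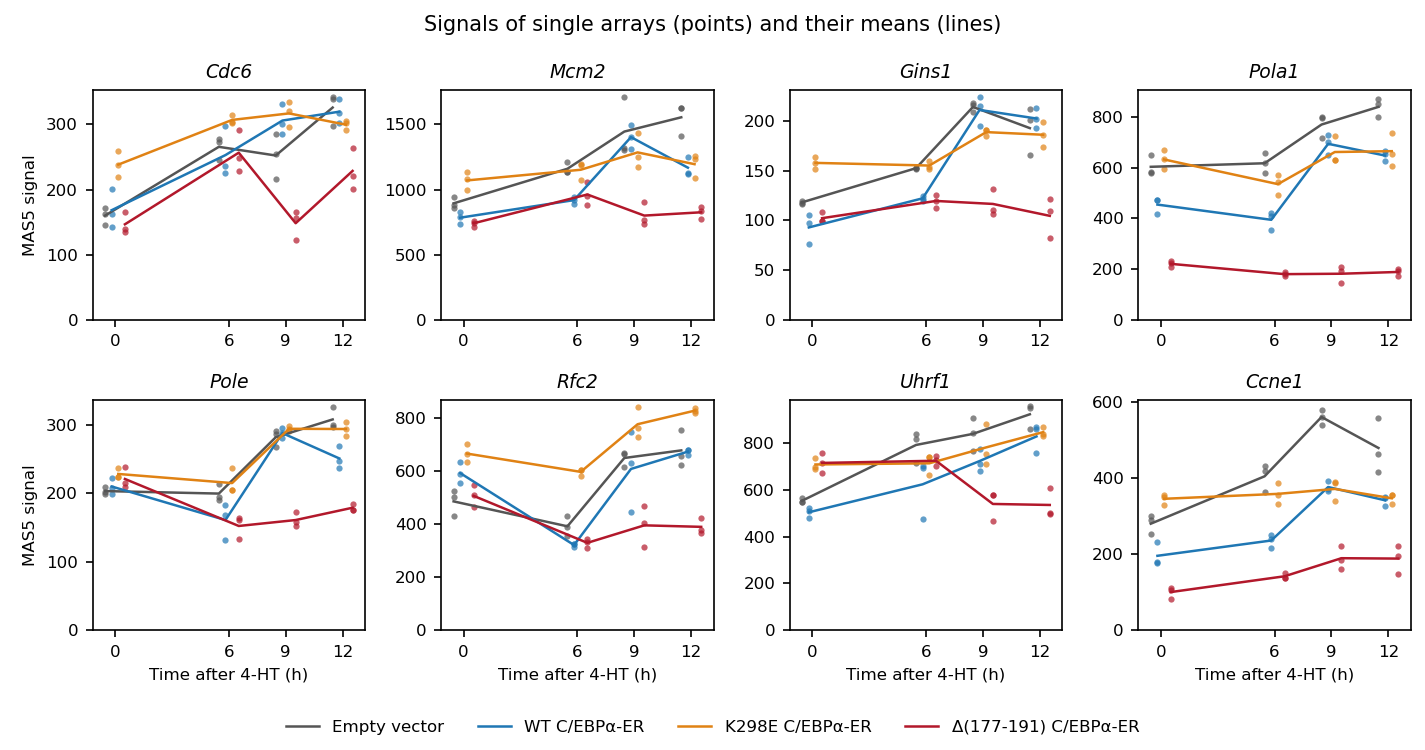
MAS5 signal of single arrays (points, linear scale) and group means (lines) against hours after 4-HT for 8 members in the 4 lines. The members are of several roles, some of them shared, with 3 arrays a group. Pola1 and Ccne1 are lowest in Δ(177-191) cells at every time, and Rfc2 stands at 313 to 325 at 6 h in WT cells.

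All 7 polymerase and primase genes rose by 12 h in vector and in WT cells, with medians of 0.48 and 0.47. In Δ(177-191) cells none rose, Pole fell, and the median was -0.14, and at 12 h all 7 lay below vector, with a median difference of -1.01. Pola1, the catalytic subunit of polymerase α, which starts each new strand, was far lower in the Δ(177-191) line throughout. At 0 h its signals were 578, 581 and 651 in vector cells, 416, 473 and 474 in WT, 633, 596 and 668 in K298E and 230, 224 and 208 in Δ(177-191) cells. The Δ(177-191) arrays lay below all others, with a difference from vector of -1.44 ± 0.09 (adjusted p = 1.52e-16), and the WT arrays were also below every vector array, with a difference of -0.41 ± 0.09 (adjusted p = 0.00481). At 12 h vector cells had 870, 850 and 799 and WT cells 652, 626 and 665, changes of 0.48 (adjusted p = 0.000223) and 0.51 (adjusted p = 3.07e-05). Δ(177-191) cells had 191, 202 and 173, lower than each of their 0 h arrays, though the change of -0.22 (adjusted p = 0.0765) did not pass. The difference from vector at 12 h was -2.14 ± 0.09 (adjusted p = 7.68e-23), the greatest of the 44 members.

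Pola2, the regulatory subunit of the same polymerase, went in WT cells from 179, 186 and 193 to 285, 319 and 287, fully separate, by 0.67 ± 0.10 (adjusted p = 4.08e-07). Over all its probe sets that change was 0.29 (adjusted p = 0.306). In Δ(177-191) cells its arrays went from 205, 197 and 169 to 159, 155 and 210, overlapping, and the change differed from the vector change by -0.65 (adjusted p = 0.000334). Pole2, an accessory subunit of polymerase ε, also started low in Δ(177-191) cells, with a difference from vector of -0.94 (adjusted p = 1.04e-11), and the difference was -1.35 at 12 h. Prim1 and Prim2, the primase pair, were lower at 6 h in WT cells, with changes of -0.29 and -0.41, and higher at 12 h, with 0.47 and 0.31.

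Pole, the catalytic subunit of polymerase ε, which copies the leading strand, changed in all 4 lines by 12 h. Vector cells had 199, 201 and 209 at 0 h and 300, 326 and 297 at 12 h, and K298E cells 223, 237 and 224 and 294, 283 and 304. WT cells had 208, 199 and 222, then 168, 131 and 183 at 6 h, and 236, 269 and 247 at 12 h. Δ(177-191) cells had 209, 238 and 215, then 160, 133 and 163 at 6 h, and 176, 184 and 176 at 12 h. The first 3 lines ended above all their 0 h arrays, and the Δ(177-191) line below all of its own. The changes at 12 h were 0.59 ± 0.09 (adjusted p = 2.03e-06), 0.36 ± 0.09 (adjusted p = 0.0154), 0.25 ± 0.09 (adjusted p = 0.0262) and -0.30 ± 0.09 (adjusted p = 0.00801), in that order of lines. The Δ(177-191) change differed from the vector change by -0.89 ± 0.12 (adjusted p = 3.4e-07), and already at 6 h by -0.51 (adjusted p = 0.00268). The 6 h change was -0.39 (adjusted p = 0.000497) in WT and -0.53 (adjusted p = 4.53e-06) in Δ(177-191) cells.

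Of the clamp and clamp loader genes 6 of 7 rose in vector and 5 of 7 in WT cells, with medians of 0.51 and 0.53. Pcna, the sliding clamp itself, was not among them in either line. Its signals were 3852, 3867 and 3916 and 4749, 4256 and 4963 in vector cells and 4232, 4363 and 4498 and 4545, 4321 and 4674 in WT cells, at 0 and 12 h. The vector groups were separate and the WT groups overlapped, with changes of 0.26 (adjusted p = 0.295) and 0.05 (adjusted p = 0.871). Its arrays spread widely within groups, from 3880 to 6603 at 9 h in Δ(177-191) cells. Dscc1, part of the alternative clamp loader, had 61, 72 and 64 and 121, 124 and 128 in vector cells, fully separate, a change of 0.89 ± 0.17 (adjusted p = 0.000104). Over all its probe sets that change was 0.49 (adjusted p = 0.201).

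Rfc2, a subunit of the clamp loader, was lower at 6 h in WT and Δ(177-191) cells. WT cells had 634, 553 and 588 at 0 h, 323, 325 and 313 at 6 h, 444, 748 and 630 at 9 h and 677, 680 and 661 at 12 h. Every 6 h WT array lay below every other WT array, and the change was -0.88 ± 0.12 (adjusted p = 6.8e-08). Vector cells had 429, 524 and 502, 430, 390 and 353 and 754, 622 and 656 at 0, 6 and 12 h, where 0 and 6 h overlapped by 1 unit and the 12 h arrays were higher. At 6 h the WT change differed from the vector change by -0.57 ± 0.16 (adjusted p = 0.0306). Over all probe sets that difference was -0.519 (adjusted p = 0.197), and after median centring -0.415 (adjusted p = 0.705), neither past the threshold. Without single arrays the difference stayed between -0.58 and -0.48 where the call was lost, and the adjusted p was 0.0955 and 0.0529 without WT replicates 1 and 3 at 0 h, 0.0512 and 0.064 without WT replicates 1 and 3 at 6 h, 0.123 without vector replicate 1 at 0 h, and 0.114 and 0.058 without vector replicates 1 and 2 at 6 h. Δ(177-191) cells had 508, 465 and 545, 345, 309 and 332 and 367, 378 and 422 at the same times. All 6 and 12 h arrays lay below their start, with a change of -0.38 ± 0.12 (adjusted p = 0.0121) at 12 h that differed from the vector change by -0.86 ± 0.16 (adjusted p = 0.0001), or by -0.51 (adjusted p = 0.104) over all probe sets. K298E cells began at 663, 701 and 632, all above vector, by 0.46 (adjusted p = 0.0114). Without K298E replicate 2 or vector replicate 1 at 0 h that start difference had an adjusted p of 0.065 or 0.109.

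The other loader subunits differed by line as well. Rfc3 rose in Δ(177-191) cells (0.55, adjusted p = 0.000342) as in vector (0.53) and WT cells (0.53). Rfc4 and Rfc5 rose in vector (0.61 and 0.51) and WT cells (0.58 and 0.69), and their Δ(177-191) changes differed from the vector changes by -0.74 (adjusted p = 9.49e-05) and -0.55 (adjusted p = 0.00212). Rfc1, the large subunit, changed by 0.38 in vector and -0.02 in Δ(177-191) cells, a difference that passed narrowly (-0.40, adjusted p = 0.0477).

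Among strand processing and single-strand binding genes, Lig1, the ligase that joins lagging-strand fragments, was the 1 member called higher at 12 h in all 4 lines. Its changes were 0.71 (adjusted p = 6.52e-07) in vector, 0.53 (adjusted p = 3.78e-05) in WT, 0.43 (adjusted p = 0.00806) in K298E and 0.44 (adjusted p = 0.000485) in Δ(177-191) cells, and no fusion line's change differed from the vector change past the threshold (-0.18, -0.28 and -0.27). Fen1, the nuclease that trims those fragments, went in WT cells from 404, 449 and 514 to 878, 816 and 946 and in vector cells from 595, 528 and 614 to 1010, 1053 and 1021. Both were separate, with changes of 0.95 ± 0.18 (adjusted p = 3.95e-05) and 0.83 ± 0.18 (adjusted p = 0.00065). Fen1 in Δ(177-191) cells had 477, 531 and 608 and 1021, 626 and 620, where 1 array of 1021 stood apart from the others, and the change of 0.45 (adjusted p = 0.0556) did not pass.

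The 3 RPA genes encode the complex that coats single-stranded DNA. Rpa1, the large subunit, had 1762, 1760 and 1588 in vector cells at 0 h and 2106, 2117 and 2172 at 12 h, fully separate, a change of 0.32 ± 0.07 (adjusted p = 0.000351). Rpa2 had 341, 312 and 321 and 445, 433 and 451 in vector cells, and 318, 297 and 290 and 301, 269 and 255 in Δ(177-191) cells. It rose clear of its start in vector cells and overlapped in Δ(177-191) cells, and the 2 changes differed by -0.58 ± 0.10 (adjusted p = 2.94e-05). Its lowest values were the 3 Δ(177-191) arrays at 9 h, 216, 216 and 221. Rpa3, the small subunit, began lower in Δ(177-191) cells, at 352, 365 and 419, than in vector cells, at 480, 465 and 503. The groups did not overlap, and the difference was -0.35 ± 0.09 (adjusted p = 0.00162), with an adjusted p of 0.101 after median centring. By 12 h no line had a Rpa3 change past the threshold.

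Of the 3 chromatin assembly genes 1 rose by 12 h in vector and in WT cells, with medians of 0.23 and 0.07. It was Uhrf1, which carries DNA methylation onto the new strand. Vector cells had 547, 549 and 568 at 0 h and 961, 861 and 954 at 12 h, and WT cells 481, 510 and 524 and 869, 761 and 861. Δ(177-191) cells had 674, 715 and 761 at 0 h, 730, 703 and 745 at 6 h, 468, 577 and 577 at 9 h and 501, 498 and 610 at 12 h. Vector and WT ended above all their 0 h arrays, and Δ(177-191) cells below all of theirs. The changes were 0.73 ± 0.10 (adjusted p = 8.73e-07), 0.71 ± 0.10 (adjusted p = 4.68e-07) and -0.42 ± 0.10 (adjusted p = 0.0015), and the last differed from the first by -1.16 ± 0.15 (adjusted p = 4.9e-08), the lowest such value among the 44 members. K298E cells went from 699, 692 and 739 to 834, 842 and 870, also separate, but the change of 0.26 (adjusted p = 0.283) did not pass. The Δ(177-191) line had started above vector by 0.37 (adjusted p = 0.0063), and its difference from vector at 12 h was -0.79 (adjusted p = 2.23e-08).

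Chaf1b, a subunit of the histone chaperone CAF-1, started lower in Δ(177-191) cells, at 158, 164 and 162, than in vector cells, at 249, 207 and 213. The groups were separate, with a difference of -0.46 ± 0.10 (adjusted p = 0.000683), and over all probe sets the difference was -0.25 (adjusted p = 0.501). In WT cells it was lower at 6 h, going from 212, 217 and 212 to 181, 132 and 138, a change of -0.51 (adjusted p = 0.000135), and was near its start at 12 h (-0.05, adjusted p = 0.792). Slbp, which binds the ends of histone messages, had 711, 759 and 747 and 831, 886 and 891 in vector cells at 0 and 12 h. These were separate, yet the change of 0.23 (adjusted p = 0.0653) did not pass. At 6 h Slbp was lower in WT (-0.26) and K298E cells (-0.26) and higher in Δ(177-191) cells (0.28, adjusted p = 0.013).

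All 3 fork protection genes rose in vector cells and 2 in WT cells, with a median of 0.39 in both. Timeless, which tethers the helicase to the polymerases, had 246, 269 and 258 and 398, 437 and 422 in vector cells and 288, 338 and 315 and 418, 427 and 426 in K298E cells, at 0 and 12 h. Both were separate, with changes of 0.69 ± 0.10 (adjusted p = 2.4e-06) and 0.43 ± 0.10 (adjusted p = 0.0137). Δ(177-191) cells had 230, 241 and 259 and 325, 276 and 242, which overlapped, and the change differed from the vector change by -0.50 ± 0.15 (adjusted p = 0.0119). That call needed the 12 h Δ(177-191) array of replicate 3, without which it was -0.40 (adjusted p = 0.0666). Tipin, the partner of TIMELESS, started at 1245, 1261 and 1365 in WT and 1608, 1516 and 1557 in vector cells, which did not overlap. The difference of -0.27 ± 0.07 (adjusted p = 0.0183) failed without the 0 h array of WT replicate 1 or 2 (adjusted p = 0.0997 or 0.0899) or vector replicate 1 or 3 (0.0954 or 0.0606). Clspn, which relays the replication checkpoint, rose by 12 h in vector cells (0.39, adjusted p = 0.00505) and had a change of 0.03 (adjusted p = 0.894) in WT cells, after -0.43 (adjusted p = 0.000966) at 6 h.

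Cyclin E, which drives CDK2 at the entry to S phase, was represented by 2 genes. Ccne1 had 252, 300 and 289 at 0 h and 417, 559 and 464 at 12 h in vector cells and 177, 231 and 179 and 351, 347 and 328 in WT cells. Δ(177-191) cells had 82, 112 and 106 and 222, 196 and 147, and K298E cells 352, 330 and 356 and 355, 332 and 355. The first 3 lines separated fully from their start and the K298E groups overlapped. The changes were 0.76 ± 0.12 (adjusted p = 6.61e-06), 0.81 ± 0.12 (adjusted p = 7.65e-07), 0.89 ± 0.12 (adjusted p = 1.03e-07) and, in K298E cells, 0.01 (adjusted p = 0.995). The K298E change differed from the vector change by -0.76 ± 0.17 (adjusted p = 0.00381), or -0.82 (adjusted p = 0.13) after median centring. Δ(177-191) cells started lowest, with a difference from vector of -1.47 ± 0.12 (adjusted p = 1.78e-13), and after their rise the difference was -1.35 at 12 h. Ccne2 rose in vector (0.48, adjusted p = 0.0212) and WT cells (0.67, adjusted p = 0.000434) and had a change of 0.12 (adjusted p = 0.664) in Δ(177-191) cells.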

How the data were processed

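Signals of 48 mouse MOE430_2 arrays were analysed. The deposited values are intensities on a linear scale, and the submitters' processing notes name MAS5, with its version and scaling not given in the sources used here. Each signal was taken as log2(signal + 3), a pseudocount that shrinks changes of dim probe sets. Of 45037 probe sets that are not controls, 27167 had at least 1 group mean above the median of all values (a signal of 14) and were fitted together, with 16 groups, with a trended prior and 32 residual degrees of freedom (R 4.3.3; limma 3.58.1 for the fit, statmod 1.5.0 as its helper). Tests were two-sided, p-values were adjusted by Benjamini-Hochberg over all probe sets tested in each comparison, and the threshold was 0.05. Values are given as log2 change ± SE. The fit was tested on simulated data. Symbols were updated through RefSeq GRCm38.p6, and counts over all genes use 1 probe set per gene.

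The members and gene lists were chosen with earlier results of these data known. Within each role, array values were given for the member with the highest mean signal and for that with the greatest change past the threshold in each of the within-line, relative and 0 h comparisons. Other members with array values, such as Gins3 and Mcm5, were chosen after their values were seen. Other pseudocounts, filters, scalings, probe set rules, array weights, a replicate term and leaving out arrays were tried. The number of arrays limits the precision, and no detection calls were used.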

Additional observations from a re-analysis of the deposited data

Results flagged for a closer look

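Each result here is a difference between 2 lines' changes that passed the test of the difference itself (limma, adjusted p under 0.05). At 12 h the K298E change was lower than the vector change for 9 members (2.26% of all genes) and the Δ(177-191) change for 26 (12.4%). The WT change was higher than the K298E change for 18 members (7.97%) and higher than the Δ(177-191) change for 25 (12.3%). With each array centred on its median the 9, 26 and 18 became 0, 10 and 11. Without replicate 2 of every group the 9, 26, 18 and 25 became 0, 17, 6 and 14. The K298E line had started higher, with a median difference from vector of 0.22 at 0 h against -0.14 in the WT line, and at 12 h the medians were -0.11 and -0.16. These comparisons share the vector, WT or 0 h arrays and are not independent of each other.

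For single genes, the Δ(177-191) change minus the vector change at 12 h was -1.155 for Uhrf1, the carrier of DNA methylation onto new strands, -0.890 for the polymerase subunit Pole, -0.857 for the helicase activator Mcm10 and -0.856 for the clamp loader subunit Rfc2. It was -0.697 for the licensing factor Cdt1, -0.670 for the helicase subunit Gins1 (-0.385, adjusted p = 0.119, without replicate 1 of every group), -0.580 for the single-strand binding subunit Rpa2 and -0.498 for the fork protection gene Timeless. The K298E change minus the vector change was -0.757 for Ccne1, which encodes cyclin E1, and the WT change minus the vector change at 6 h was -0.569 for Rfc2. Over all probe sets the Δ(177-191) calls for Mcm10 (-0.443, adjusted p = 0.17) and Rfc2 (-0.506, adjusted p = 0.104) were lost. The call for Timeless was lost under 4 alternatives, median centring among them (adjusted p = 0.261). That for Ccne1 was lost under 2, median centring (adjusted p = 0.13) and without replicate 2 of every group (0.134). That for Rfc2 in WT cells was lost under 12.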

How the results depend on the processing

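Of 1769 alternative values of 29 results for single named genes, 1722 kept direction and side of the threshold, 47 in 15 results lost the call and none reversed. Most of these values come from leaving out 1 array, mostly one outside the comparison, where the call could move little. No replicate numbers paired the arrays: same-numbered arrays of different groups had deviations correlated at a median of 0.00952 (-0.15 to 0.147), others at -0.00597. With a replicate block the count lower in WT than in vector at 6 h went from 1 to 3, and no other count moved by over 1.5 times. Median centring gave 1 higher in vector cells at 6 h and 25 at 12 h, 3 higher and 3 lower in WT at 6 h, 0 and 0 in K298E at 6 h and 0 higher at 12 h, 1 higher and 3 lower in Δ(177-191) at 6 h, and 4 higher and 0 lower at 12 h. Against the vector change it gave 0 lower in WT and 0 in Δ(177-191) at 6 h, 0 in K298E and 10 in Δ(177-191) at 12 h, and 11 for WT above K298E. For levels against vector it gave 1 lower in WT at 0 h, 0 higher in K298E, 0 higher and 4 lower in Δ(177-191), and at 12 h 0 lower in WT and 1 in K298E. Quantile normalization gave 1 lower in vector and 4 in K298E at 6 h, 8 higher in K298E and 5 lower in Δ(177-191) at 12 h, against the vector change 2 lower in WT and 1 in K298E at 6 h, 1 each way in WT and 15 lower in K298E at 12 h, and at 0 h 1 lower in K298E and 5 higher in Δ(177-191). Array weights gave 3 lower in vector at 6 h, 8 higher in K298E at 12 h, against the vector change 5 lower in WT, 1 lower in K298E and 1 higher in Δ(177-191) at 6 h, 1 higher in WT and 18 lower in K298E at 12 h, and for levels 12 lower in WT and 5 higher in Δ(177-191) at 0 h, and 1 higher and 9 lower in K298E at 12 h. The stricter filter gave 1 lower in vector and 4 in K298E at 6 h, 7 higher in K298E and 6 lower in Δ(177-191) at 12 h, against the vector change 4 lower in WT at 6 h, 1 higher in WT and 17 lower in K298E at 12 h, and for 12 h levels 1 higher and 9 lower in K298E. No filter gave 1 higher and 1 lower in K298E and 4 lower in Δ(177-191) against vector, all at 6 h. The mean of all probe sets gave 6 higher in WT, 0 lower in K298E and 1 lower in K298E against vector at 6 h, 7 higher in K298E at 12 h, and 1 higher and 7 lower for WT levels at 12 h. Fitting only the groups compared gave 1 lower in vector, 4 higher in WT and 0 lower in K298E at 6 h, against the vector change 1 lower in K298E and 4 in Δ(177-191) at 6 h and 14 in K298E at 12 h, and 1 higher for K298E levels at 12 h. Leaving out arrays singly or by replicate number gave, at 6 h, 5 to 12 higher and 0 to 2 lower in vector, 5 to 12 higher and 6 to 11 lower in WT, 0 to 2 higher and 0 to 3 lower in K298E, and 2 to 7 lower in Δ(177-191). At 12 h it gave 0 to 5 higher in K298E and 5 to 10 higher in Δ(177-191). Against the vector change it gave 0 to 3 lower in WT, 0 to 1 lower in K298E, 0 to 1 higher and 0 to 8 lower in Δ(177-191) at 6 h, and 0 to 1 higher in WT, 0 to 13 lower in K298E and 17 to 27 lower in Δ(177-191) at 12 h. The WT change exceeded the K298E change for 6 to 19 members and the Δ(177-191) change for 14 to 26. Levels at 0 h gave 0 to 10 lower in WT, 0 to 12 higher in K298E, and 0 to 3 higher and 7 to 13 lower in Δ(177-191), and at 12 h 3 to 11 lower in WT, and 0 to 1 higher and 0 to 6 lower in K298E. Without replicate 1, 2 or 3 of every group, calls were also lost for Gins1, Timeless and Rfc2 in Δ(177-191), K298E or WT comparisons with vector named in the text, Ccne1 in K298E, Tipin in WT, and Cdc6, Gins4 and Mcm10 in K298E at 0 h. The cause of these moves was not tested. Counts of 36 risers in WT cells and of 38 members lower in Δ(177-191) cells at 12 h stayed within 1.5 times under every alternative run. Of called members with further tested probe sets, 18 of 28 in vector and 17 of 26 in WT cells at 12 h had another called the same way. It was 1 of 10 for K298E levels at 0 h and 1 of 8 for WT levels at 12 h. For changes at 12 h it was 4 of 13 for WT above K298E and 10 of 20 for Δ(177-191) below vector. None of these had another called the opposite way.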

Other observations

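Outside the 45 members, related genes were counted in the same fits. Of 41 other replication factors tested 11 rose and 1 fell at 12 h in vector cells, 17 rose and 2 fell in WT cells, none passed in K298E cells (6 higher and 2 lower at unadjusted p under 0.05), and 6 rose and 11 fell in Δ(177-191) cells (limma, adjusted p under 0.05). Over all genes tested the shares higher and lower were 7.69% and 9.76%, 14.8% and 16.2%, 1.03% and 1.31%, and 12.2% and 18.3% in these lines. The medians of the 41 were 0.16, 0.22, 0.03 and -0.13. In Δ(177-191) cells 12 of the 41 differed downward from the vector change and 1 upward, beside 12.4% and 9.97% of all genes. Pold2, a small subunit of polymerase δ, had 414, 411 and 416 at 0 h and 232, 274 and 248 at 12 h in that line, fully separate, a change of -0.72 ± 0.09 (adjusted p = 3.07e-08). Atr, the kinase of the replication checkpoint, went from 344, 375 and 380 to 195, 189 and 154, a change of -1.02 ± 0.12 (adjusted p = 6.27e-09). Pold4, another δ subunit, was lower in both vector (139, 120 and 133 to 61, 64 and 62) and WT cells (173, 188 and 148 to 84, 67 and 72) at 12 h.

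Of 13 further chromatin factors coupled to replication, 9 rose by 12 h in vector cells (7.69% of all genes) and 7 in WT cells (14.8%). None rose in K298E cells (1.03%, limma, with 6 at unadjusted p under 0.05). In Δ(177-191) cells 5 rose (12.2%) and 1 fell (18.3%). Asf1a, a histone chaperone, had signals of 463, 485 and 493 at 0 h, 1238, 1266 and 1183 at 6 h and 1452, 1166 and 1247 at 12 h in Δ(177-191) cells, a 12 h change of 1.41 ± 0.07 (adjusted p = 1.4e-19), and 612, 582 and 601 and 653, 664 and 690 at 0 and 12 h in vector cells. Its Δ(177-191) change exceeded the vector change by 1.25 ± 0.10 (adjusted p = 7.96e-13). Nasp, which carries histones, rose in vector cells from 444, 465 and 443 to 831, 817 and 789, and its Δ(177-191) and K298E changes differed from the vector change by -0.93 ± 0.09 (adjusted p = 6.47e-11) and -0.62 ± 0.09 (adjusted p = 5.08e-06). Of 24 G2/M genes tested, 12 had fallen by 6 h in the WT line (19.0% of all genes) and 6 in the vector line (12.0% of all genes), with medians of -0.21 and -0.14. At 6 h and an unadjusted p under 0.05, 13 were lower in WT and 9 in vector cells, and 0 higher in either. By the same count 5 were lower and 1 higher in K298E cells, and 9 lower and 4 higher in Δ(177-191) cells. Nusap1 and Racgap1 passed the threshold as falls in K298E cells (7.04% of all genes). Cenpf and Tpx2 did so in Δ(177-191) cells (18.3%), where Kif2c and Mad2l1 rose past it (12.2%). At 12 h 7 were higher (14.8% of all genes) and 2 lower (16.2%) in WT cells and 3 higher (7.69%) in vector cells. Ccnb2, a mitotic cyclin, went from 1400, 1398 and 1411 to 913, 879 and 890 in WT cells over those 6 h, a change of -0.65 ± 0.06 (adjusted p = 5.69e-11), and was still below its start at 12 h, a change of -0.21 ± 0.06 (adjusted p = 0.0127), as was Nusap1, at -0.18 ± 0.07 (adjusted p = 0.0492). These lists were drawn up with earlier results of these data known.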
